A study of Mus with 9 samples.

Results

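Cytotoxic and early lymphoid genes were examined in mouse bone marrow, as 9 genes of the 54532 in the deposited count table. The genes were picked by name: the granule genes Prf1, Gzma, Gzmb and Ctsw, the receptor genes Il2rb, Il7r and Cd7, the transcription factor gene Tcf7 and the B cell co-receptor gene Cd22. Of the 9 genes, 7 passed the filter on low counts and were tested among 15660 genes, while Gzma and Gzmb did not pass it.

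Cytotoxic lymphocytes kill by releasing granules, from which the pore-forming protein perforin lets granzymes enter the target cell. Cytokines of the common gamma chain family act through receptor chains such as those encoded by Il2rb and Il7r, and support natural killer cells, T cells and early lymphoid progenitors. Tcf7 encodes TCF-1, a transcription factor that is induced by Notch signalling in early T cell progenitors, and CD22 dampens signals of the B cell receptor.

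RNA was sequenced from bone marrow cells of mice in 3 groups, with 3 libraries each. In every group, fetal liver cells of embryonic day 12.5 carried a knock-in of the fusion gene AML1-ETO, tagged with mCherry, and were infected with the retroviral vector MSCV-IRES-EGFP. The vector held CCND2 with alanine in place of threonine at residue 280 (labelled CCND2mut), wild type CCND2 (labelled CCND2wt) or no insert (labelled Vec). Lethally irradiated C57BL/6 mice received 100000 infected cells, positive for mCherry and GFP, together with supportive cells. The labels call the sequenced material bone marrow cells and do not say that donor cells were sorted again, so that cells of the host or the support graft can be included. Nothing in them says that each library is its own mouse, and p-values therefore reflect the spread among these libraries only, which may be technical.

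Total counts were 15043755 to 17593634 per library, and 1 read was worth 0.0529 to 0.0679 CPM, the read count scaled to library size. Counts of the mouse gene Ccnd2 were lowest in the libraries labelled CCND2wt. Ccnd2 stood at 12.6, 58.2 and 51.1 CPM in libraries labelled CCND2mut, at 7.30, 9.29 and 11.1 CPM in libraries labelled CCND2wt, and at 76.2, 79.0 and 86.2 CPM in libraries labelled Vec. Which species the inserted sequence came from is not given in the sources used here, so whether reads of the insert are counted there is unknown. Group names stand only for libraries so labelled. The 3 CCND2wt libraries differed from one another by more than counting noise, but less than those of the other groups, with a chi-square per gene of 6.999 to 17.7 for pairs within CCND2wt and 53.3 to 148 for pairs within the other groups. Vec 1 stood apart by its haemoglobin counts (1.51% of the library) and its immunoglobulin counts (0.588%), which were at most 0.356% and 0.0441% elsewhere.

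Perforin RNA was graded across the groups, lowest in CCND2mut and highest in Vec. Prf1 (ENSMUSG00000037202) lies on chromosome 10 at 61297833 to 61304680 on the plus strand, in mm10. It stood at 0.546, 0.334 and 0.465 CPM in libraries labelled CCND2mut (replicates 1, 2 and 3), at 14.2, 19.4 and 11.3 CPM in libraries labelled CCND2wt (2, 3 and 4) and at 72.5, 62.1 and 33.9 CPM in libraries labelled Vec (1, 2 and 4). No pair of groups overlapped, and the CCND2mut libraries held 9, 5 and 7 reads of the gene. In edgeR's quasi-likelihood test, Prf1 was 123-fold lower in CCND2mut than in Vec, a log2 fold change of -6.94 ± 0.405 (SE, adjusted p = 1.75e-05). It was lower in CCND2mut than in CCND2wt as well, by 32.7-fold (log2 fold change -5.03 ± 0.407, edgeR adjusted p = 4.25e-05). The difference of CCND2wt from Vec was smaller, at 3.76-fold lower (log2 fold change -1.91 ± 0.300, edgeR adjusted p = 0.00528). With the CCND2wt libraries summed into 1 sample, the last of these had an edgeR adjusted p of 0.206. In whole marrow, fewer cells of a type and less RNA per cell cannot be told apart.

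RNA of granzymes A and B was scarce outside Vec. Gzmb (ENSMUSG00000015437; chromosome 14, 56258838 to 56262260, minus strand) encodes granzyme B, a protease that triggers cell death by cleaving after aspartate. It had 0, 4 and 2 reads in CCND2mut 1, 2 and 3, against 3, 5 and 4 reads in CCND2wt 2, 3 and 4. In Vec 1, 2 and 4 it had 177, 276 and 7 reads, or 10.7, 18.7 and 0.449 CPM. Both CCND2 groups lay below all Vec libraries, but Vec 4 was much closer to them than Vec 1 and Vec 2 were. Over the summed reads Gzmb was 76.0-fold lower in CCND2mut than in Vec (95% counting interval 34.7 to 208) and 44.7-fold lower in CCND2wt than in Vec (25.4 to 87.2). These intervals cover counting error only. In a fit without the filter, on 30980 genes, the edgeR adjusted p of Gzmb was 0.0178 for CCND2mut against Vec and 0.0565 for CCND2wt against Vec.

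Gzma (ENSMUSG00000023132; chromosome 13, 113093825 to 113100981, minus strand) encodes granzyme A, a protease of cytotoxic granules that cleaves after basic residues. It had 3, 0 and 1 reads in libraries labelled CCND2mut, 2, 0 and 1 in libraries labelled CCND2wt, and 19, 2 and 8 in libraries labelled Vec. The range of CCND2mut overlapped that of Vec, and CCND2wt lay just under the lowest Vec library. Summed reads were 7.19-fold lower in CCND2mut than in Vec (95% counting interval 2.52 to 28.1) and 11.3-fold lower in CCND2wt than in Vec (3.50 to 57.9). Neither passed the threshold in the unfiltered fit, with edgeR adjusted p = 0.0907 for CCND2mut against Vec and 0.106 for CCND2wt against Vec.

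Ctsw was lower in CCND2mut than in both other groups. Ctsw (ENSMUSG00000024910) encodes cathepsin W, a cysteine protease found mainly in natural killer and cytotoxic T cells, and lies on chromosome 19 at 5465240 to 5468498 on the minus strand. It stood at 1.82, 2.94 and 2.86 CPM in libraries labelled CCND2mut, at 14.4, 11.3 and 10.95 CPM in libraries labelled CCND2wt and at 9.90, 8.83 and 10.7 CPM in libraries labelled Vec. All CCND2mut libraries lay below all others, and CCND2wt lay narrowly above Vec. Ctsw was 3.86-fold lower in CCND2mut than in Vec (log2 fold change -1.95 ± 0.245, edgeR adjusted p = 0.000387) and 4.80-fold lower than in CCND2wt (-2.26 ± 0.244, edgeR adjusted p = 0.000207). CCND2wt against Vec gave 0.31 ± 0.237, with an edgeR adjusted p of 0.380.

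**Figure D1:**
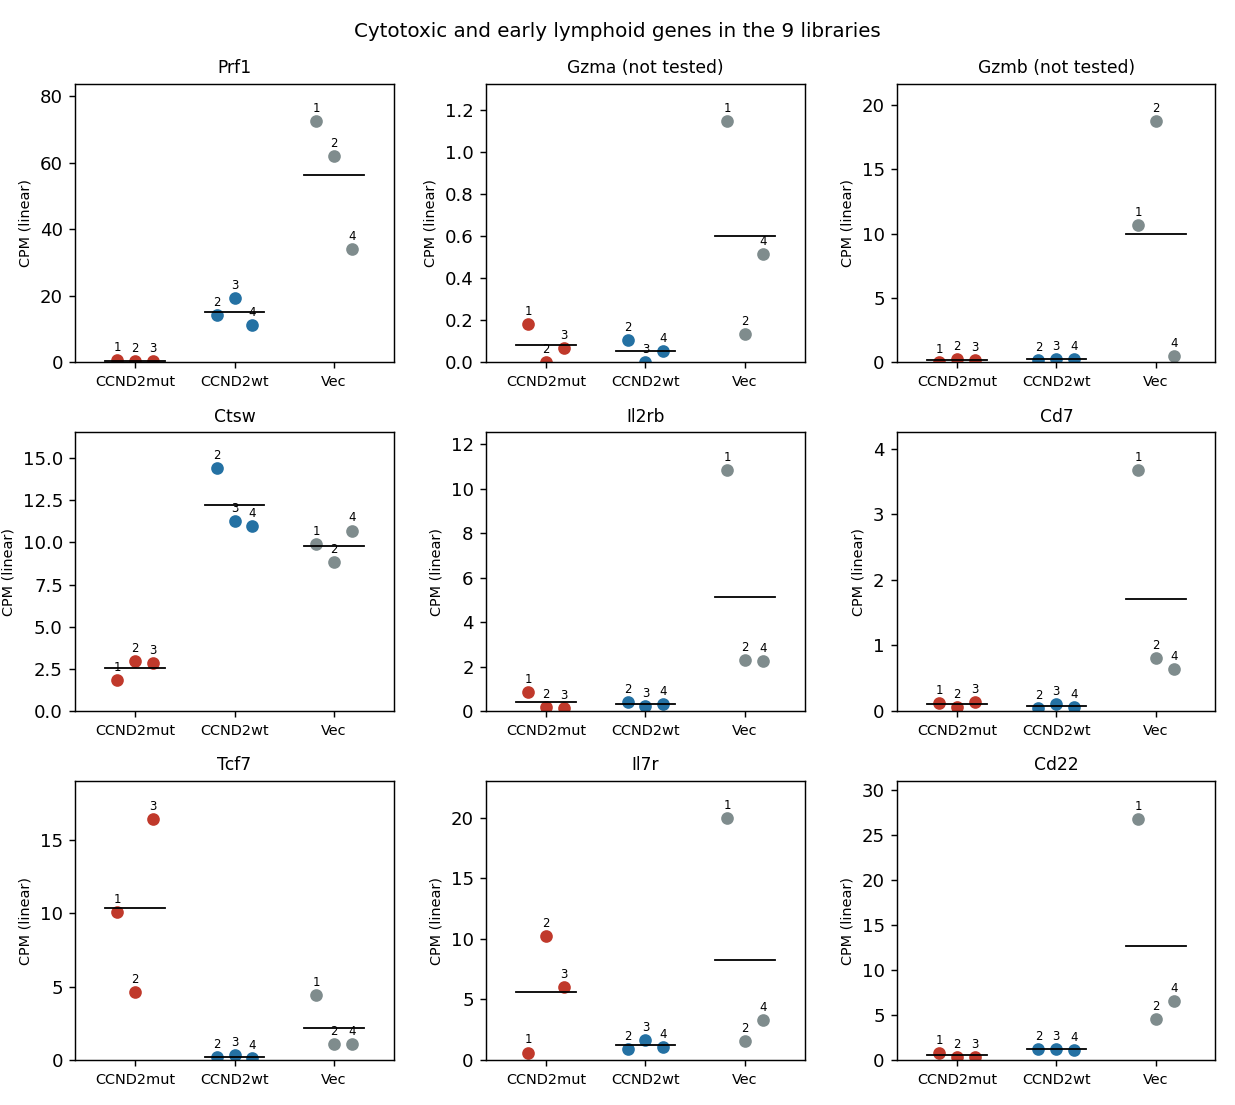
Level of each gene in CPM (linear axes from 0, a scale of its own per gene) in the 9 libraries, with points numbered by replicate and bars at the group mean. Prf1 is lowest in CCND2mut and highest in Vec, Ctsw is low in CCND2mut, Tcf7 is highest in CCND2mut, and Il2rb, Cd7, Il7r and Cd22 are highest in Vec 1, as is Gzma.

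The granule genes did not keep 1 proportion to each other. Per kilobase of gene length, the Prf1 level divided by the Gzmb level was 0.695 and 1.95 in CCND2mut 2 and 3, which rest on 2 to 7 reads a gene, and had no value in CCND2mut 1, where Gzmb had no read. It was 49.8, 38.0 and 28.5 in CCND2wt 2, 3 and 4, and 3.77, 1.84 and 42.0 in Vec 1, 2 and 4. In this ratio Vec 4 lay with the CCND2wt libraries and not with Vec 1 and Vec 2.

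Il2rb was lower in both CCND2 groups than in Vec. It encodes the beta chain shared by the receptors of interleukin 2 and interleukin 15 (ENSMUSG00000068227; chromosome 15, 78479256 to 78495271, minus strand). Il2rb stood at 0.850, 0.200 and 0.133 CPM in libraries labelled CCND2mut, at 0.423, 0.227 and 0.330 CPM in libraries labelled CCND2wt and at 10.9, 2.31 and 2.24 CPM in libraries labelled Vec. Both CCND2 groups lay below Vec and overlapped each other, and Vec 1 was the highest library. The log2 fold change was -3.66 ± 0.845 in CCND2mut against Vec (edgeR adjusted p = 0.00757) and -3.94 ± 0.849 in CCND2wt against Vec (edgeR adjusted p = 0.0175). Without Vec 1 these were -2.49 and -2.74, and without CCND2mut 1 the first was -4.89, each past the threshold in edgeR. The call for CCND2wt was lost without CCND2wt 2, 3 or 4 (edgeR adjusted p = 0.0699, 0.0796 and 0.0824). Il2rb passed the filter on low counts through the Vec libraries and CCND2mut 1, so that its calls against Vec are no support for a direction. CCND2mut against CCND2wt gave 0.28 ± 0.948 (edgeR adjusted p = 0.823), and -0.95 without CCND2mut 1.

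Cd7, which encodes a membrane receptor of T and natural killer cells and their progenitors, followed the same order as Il2rb (ENSMUSG00000025163; chromosome 11, 121036747 to 121039418, minus strand). Its levels were 0.121, 0.0668 and 0.133 CPM in libraries labelled CCND2mut, 0.0529, 0.113 and 0.0550 CPM in libraries labelled CCND2wt, and 3.68, 0.815 and 0.641 CPM in libraries labelled Vec. At most 2 reads were counted in any CCND2 library, and Vec lay above both groups. The log2 fold change was -3.91 ± 0.942 in CCND2mut against Vec (edgeR adjusted p = 0.00479) and -4.42 ± 1.01 in CCND2wt against Vec (edgeR adjusted p = 0.0109). Without Vec 1 they were -2.68 and -3.16, both past the threshold in edgeR, and the call for CCND2wt was lost without CCND2wt 2 or 4 (edgeR adjusted p = 0.0576 and 0.0583). Cd7 passed the filter on low counts through the Vec libraries alone, so that its calls against Vec are no support for a direction. CCND2mut against CCND2wt gave 0.51 ± 1.22 (edgeR adjusted p = 0.736). Over summed reads the CCND2mut level was 1.47 times the CCND2wt level, with a 95% counting interval of 0.317 to 7.41.

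Il7r levels varied widely within CCND2mut and Vec. The gene encodes the alpha chain of the receptors of interleukin 7 and of thymic stromal lymphopoietin (ENSMUSG00000003882; chromosome 15, 9505788 to 9530176, minus strand). It stood at 0.607, 10.2 and 6.04 CPM in libraries labelled CCND2mut, at 0.899, 1.64 and 1.05 CPM in libraries labelled CCND2wt and at 19.98, 1.56 and 3.27 CPM in libraries labelled Vec. CCND2mut 1 lay below every CCND2wt library while CCND2mut 2 and 3 lay above them, and all pairs of groups overlapped. No comparison passed the threshold in edgeR: CCND2mut against Vec gave -0.56 ± 1.05 (adjusted p = 0.678), CCND2wt against Vec -2.79 ± 1.09 (adjusted p = 0.122) and CCND2mut against CCND2wt 2.23 ± 1.099 (adjusted p = 0.139). The first turned to 1.22 without Vec 1 (edgeR adjusted p = 0.318). With both Vec 1 and CCND2mut 1 left out it was 1.76 (edgeR adjusted p = 0.0161), and CCND2mut against CCND2wt was then 2.75 (edgeR adjusted p = 0.00130).

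Tcf7 was higher in CCND2mut than in both other groups. It lies on chromosome 11 at 52252371 to 52283014 on the minus strand (ENSMUSG00000000782) and overlaps a long noncoding gene of the same strand, Gm26551, which had 10 to 44 reads per library, so that reads of shared sequence cannot be told apart. Tcf7 stood at 10.1, 4.61 and 16.5 CPM in libraries labelled CCND2mut, at 0.212, 0.340 and 0.110 CPM in libraries labelled CCND2wt and at 4.41, 1.09 and 1.09 CPM in libraries labelled Vec. No groups overlapped, although CCND2mut 2 lay only just above Vec 1. Tcf7 was 45.7-fold higher in CCND2mut than in CCND2wt (a log2 change of 5.51 ± 0.804, edgeR adjusted p = 0.000902), with 483 summed reads against 12. With the CCND2wt libraries summed into 1 sample, its edgeR adjusted p was 0.0506.

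Against Vec, Tcf7 was 4.70-fold higher in CCND2mut (log2 fold change 2.23 ± 0.657, edgeR adjusted p = 0.0230) and 9.72-fold lower in CCND2wt (-3.28 ± 0.818, edgeR adjusted p = 0.0250). Both calls depended on the libraries and the fit. The first missed the threshold in a fit of these 2 groups alone (edgeR adjusted p = 0.0548), with the CCND2wt libraries summed into 1 sample (0.0560) and without Vec 2, Vec 4 or CCND2mut 3 (0.0733, 0.0736 and 0.0782). It was larger without Vec 1, at 3.24 (edgeR adjusted p = 0.00344). The second missed it in limma-voom (adjusted p = 0.0904), without Vec 1 (log2 fold change -2.24, edgeR adjusted p = 0.0512) and without CCND2wt 2, 3 or 4 (0.0973, 0.0646 and 0.103).

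Cd22 was lower in both CCND2 groups than in Vec. The gene encodes an inhibitory lectin of B cells that binds sialic acid (ENSMUSG00000030577; chromosome 7, 30865402 to 30880342, minus strand). Its levels were 0.789, 0.334 and 0.332 CPM in libraries labelled CCND2mut, 1.22, 1.25 and 1.05 CPM in libraries labelled CCND2wt, and 26.8, 4.55 and 6.54 CPM in libraries labelled Vec. The groups did not overlap, and Vec 1 was well above Vec 2 and Vec 4. Cd22 was 25.5-fold lower in CCND2mut than in Vec (log2 fold change -4.67 ± 0.717, edgeR adjusted p = 0.00128) and 10.7-fold lower in CCND2wt than in Vec (-3.43 ± 0.657, edgeR adjusted p = 0.0133). Without Vec 1 these log2 fold changes were -3.49 and -2.21, both past the threshold in edgeR. The call for CCND2wt was lost without CCND2wt 2, 3 or 4 (edgeR adjusted p = 0.0629, 0.0590 and 0.0680). CCND2mut against CCND2wt gave -1.25 ± 0.745 (edgeR adjusted p = 0.197), and passed without Vec 1 (-1.28, edgeR adjusted p = 0.0357) and in a fit of these 2 groups alone (edgeR adjusted p = 0.0422).

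**Figure D2:**
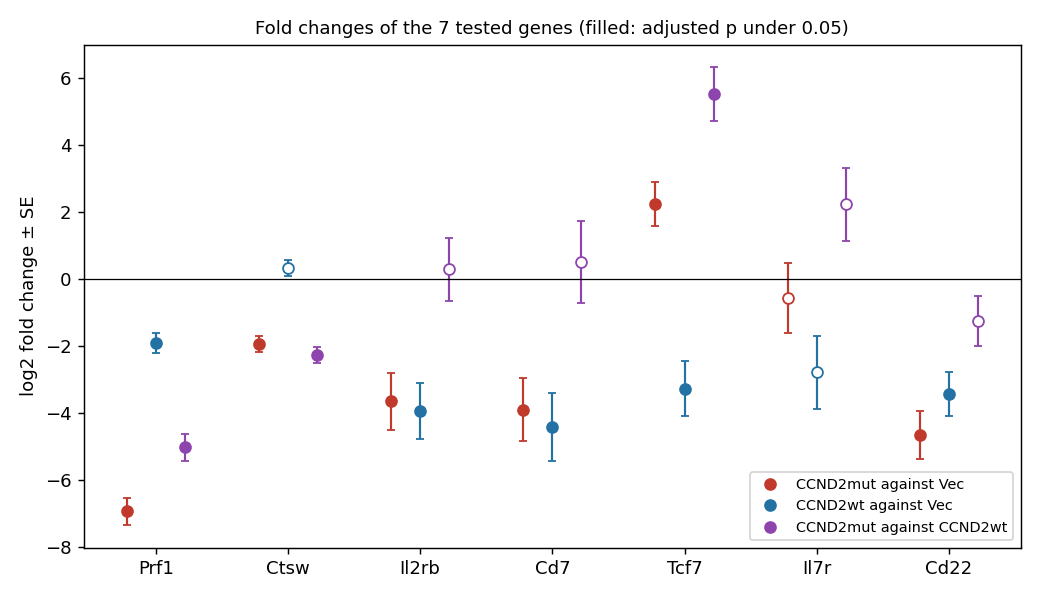
Log2 fold change ± SE of the 7 tested genes in the 3 comparisons (linear axis), with filled points past an edgeR adjusted p of 0.05 and open points not. Prf1 has the lowest value, -6.94 in CCND2mut against Vec, and Tcf7 the highest, 5.51 in CCND2mut against CCND2wt, while the Il7r points are all open.

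Levels can be set against each other per kilobase of gene length. In libraries labelled CCND2mut, Tcf7 came first at 3.96 ± 2.26 CPM per kilobase (SD, n = 3), then Ctsw at 2.06 ± 0.505, Il7r at 1.21 ± 1.03 and Prf1 at 0.174 ± 0.0415. The other 5 genes lay between 0.0824 and 0.0962, and neighbours in this order differed by no more than the larger SD, except Prf1 and the next gene, Cd22, whose ranges overlapped. In libraries labelled CCND2wt, Ctsw came first at 9.91 ± 1.54 CPM per kilobase and Prf1 next at 5.79 ± 1.58, with ranges that did not overlap. All others were at most 0.256, with Gzma last at 0.0533 ± 0.0526.

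In libraries labelled Vec, Prf1 led at 21.7 ± 7.73 CPM per kilobase, above Ctsw at 7.96 ± 0.765 and Gzmb at 6.93 ± 6.38. The remaining means ran from 2.50 ± 2.44 for Cd22 over Il7r, Cd7, Il2rb and Tcf7 to 0.595 ± 0.508 for Gzma, with neighbours that did not differ beyond their spread. Prf1 thus stood below Ctsw in CCND2wt and above it in Vec, and Tcf7 stood first in CCND2mut and eighth in Vec.

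**Figure D3:**
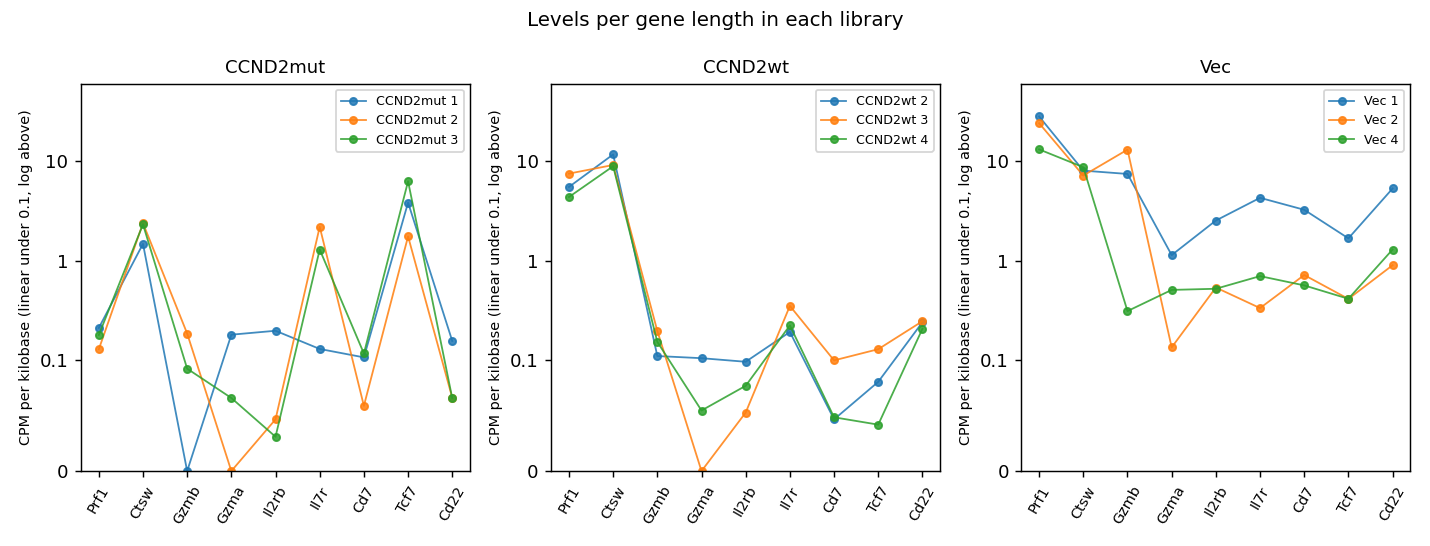
Level per gene length in CPM per kilobase (axis linear under 0.1 and logarithmic above) of the 9 genes in each library, with 1 line per library and 1 panel per group. The 3 CCND2wt lines nearly coincide, Vec 4 departs from Vec 1 and Vec 2 at Gzmb, and the CCND2mut lines peak at Tcf7 in CCND2mut 1 and 3.

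Over the 9 genes, CCND2mut against Vec had 5 tested genes past the threshold in edgeR that were lower (Prf1, Ctsw, Il2rb, Cd7 and Cd22), where 26.9% of all tested genes were lower, and 1 that was higher (Tcf7), where 24.9% were higher. By range alone, CCND2mut lay wholly below Vec in 6 of the 9 genes, the untested Gzmb among them, and wholly above in 1. Of all tested genes, 29.2% and 27.4% did so. CCND2wt against Vec had 5 lower (Prf1, Il2rb, Cd7, Tcf7 and Cd22) and 0 higher, where 9.05% and 9.71% of tested genes were called. CCND2wt lay wholly below Vec in 7 genes and wholly above in 1, Ctsw, against 23.7% and 24.6% of all tested genes. The 7 include Gzma and Gzmb, which were not tested, so these range counts and shares cover unlike sets. Gzma lay below only by library scaling, with 2 reads in both CCND2wt 2 and Vec 2. These comparisons share their Vec libraries and are not independent.

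CCND2mut against CCND2wt had 2 tested genes lower (Prf1 and Ctsw) and 1 higher (Tcf7), where 23.8% and 23.2% of all tested genes were called. CCND2mut lay wholly below CCND2wt in 3 genes and wholly above in 1, against 32.2% and 30.9% of all tested genes. Such counts over the tested genes are no support for a direction, since several genes passed the filter only through groups where they are high. Cd7 passed it through the Vec libraries alone, and Il2rb through those and CCND2mut 1. Prf1 passed it through Vec and CCND2wt, and Tcf7 through Vec and CCND2mut. The count of 5 for CCND2wt against Vec was 1, 2 or 1 without CCND2wt 2, 3 or 4, and 0 with the CCND2wt libraries summed. Some 2938, 8119 and 7360 genes passed for CCND2wt against Vec, CCND2mut against Vec and CCND2mut against CCND2wt, and the median log2 fold change of all genes lay within -0.04 and 0.02.

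Some marker genes of lymphoid cell types moved with several of these results. Of 12 natural killer cell markers, 5 to 7 had a read in libraries labelled CCND2mut, 7 to 9 in libraries labelled CCND2wt and 9 to 12 in libraries labelled Vec. Their summed levels were 51.3 to 58.0 CPM, 96.4 to 102 CPM and 86.9 to 112 CPM in these groups, most of it from Itga2 and Nkg7, which other cells also express. Klrb1c, Klre1, Klra8 and Tbx21 were at 0 in all CCND2mut libraries and Klra8 in all CCND2wt libraries. Klra8 had only 3, 0 and 1 reads in Vec 1, 2 and 4. Ncr1, the defining receptor NKp46, had at most 8 reads in any library. Of 5 tested markers, 2 were lower and 1 higher in CCND2mut against Vec in edgeR. These are 40% and 20%, beside 26.9% and 24.9% of all tested genes. Against CCND2wt, 2 were lower and 2 higher, or 40% each, beside 23.8% and 23.2% of all tested genes. Nkg7 was higher in both comparisons and Klrk1 in the second. Nkg7 averaged 45.0 CPM in CCND2mut, 22.2 CPM in CCND2wt and 28.4 CPM in Vec. The part of natural killer cells in the Prf1, Gzmb, Ctsw and Il2rb differences was not tested.

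Of 14 T cell markers, 7 to 14 had a read in CCND2mut libraries, 8 to 12 in CCND2wt and 14 in each of Vec, with summed levels of 23.7 to 89.3 CPM, 182 to 194 CPM and 206 to 224 CPM. Lat, an adaptor that mast cells and platelets also use, made up most of each sum. The receptor genes Cd3d, Cd3e and Cd3g were each at 0.182 CPM or less in every CCND2mut and CCND2wt library, against 0.340 to 2.78 CPM in Vec. Other genes of the list did not all follow the CD3 genes. Lck, the kinase of the T cell receptor, stood at 0.364, 0.200 and 16.7 CPM in CCND2mut, at 0.159, 0 and 0.165 CPM in CCND2wt and at 7.85, 1.56 and 1.86 CPM in Vec, and CCND2mut 3, its highest library, was also the highest for Tcf7. Set against CCND2wt, Lck was higher in CCND2mut by 5.63 on the log2 scale (edgeR adjusted p = 0.0387), but without CCND2mut 3 the value was 1.33 (edgeR adjusted p = 0.411). That call was lost as well without any 1 CCND2wt library, Vec 2 or Vec 4 (edgeR adjusted p = 0.0508 to 0.113). The surface receptor gene Cd5 was higher there too (log2 fold change 1.83, edgeR adjusted p = 0.0339), a call lost without CCND2mut 3 or any 1 CCND2wt library (edgeR adjusted p = 0.0592 to 0.130). The part of T cells in the Tcf7 differences was not tested.

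Of 12 B cell markers, 7 to 12 had a read in CCND2mut libraries, 11 to 12 in CCND2wt and all 12 in Vec. Their summed levels were 7.37 to 17.7 CPM in CCND2mut, 28.9 to 32.7 CPM in CCND2wt and 82.2 to 464 CPM in Vec, in the same order as Cd22, with none at 0 throughout a group. Ms4a1, the B cell antigen CD20, stood at 0.850, 0 and 0 CPM in CCND2mut, 0.899, 1.303 and 1.101 CPM in CCND2wt and 22.03, 3.26 and 6.67 CPM in Vec. The part of B cells in the Cd22 differences was not tested.

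Innate lymphoid cell markers (10 genes) summed to 80.2 to 684 CPM in CCND2mut. In CCND2wt they summed to 904 to 1110 CPM, and in Vec to 394 to 515 CPM. Il1rl1 alone averaged 289, 952 and 383 CPM in these groups. Of 8 tested markers, 1 was lower and 0 higher in CCND2wt against Vec in edgeR (median log2 fold change -1.38). These are 12.5% and 0%, beside 9.05% and 9.71% of all tested genes. Il5 was at 0 in CCND2mut and CCND2wt and averaged 0.0201 CPM in Vec. Markers of plasmacytoid dendritic cells (8 genes) summed to 283 to 296 CPM, 318 to 347 CPM and 391 to 499 CPM in these groups. Most of it came from Runx2, Tcf4 and Bst2, and Pacsin1 was at 0 in CCND2mut. Bst2 went against the sums, at 33.7 CPM in CCND2mut, 78.9 CPM in CCND2wt and 53.7 CPM in Vec on average. Siglech averaged 0.0221 CPM in CCND2mut, 0.0378 CPM in CCND2wt and 3.99 CPM in Vec. Myeloid and erythroid marker lists held 10 genes each. Neutrophil markers ran from 3113 to 18941 CPM in CCND2mut, 140 to 251 CPM in CCND2wt and 482 to 14362 CPM in Vec, and those of monocytes and macrophages from 1406 to 4479 CPM, 44.3 to 46.4 CPM and 60.5 to 427 CPM. Mast cell and basophil markers stood at 1700 to 15550 CPM, 16877 to 17674 CPM and 7287 to 10176 CPM, and erythroid markers at 35.7 to 300 CPM, 1086 to 1303 CPM and 145 to 17097 CPM. Their part in the results was not tested.

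**Figure D4:**
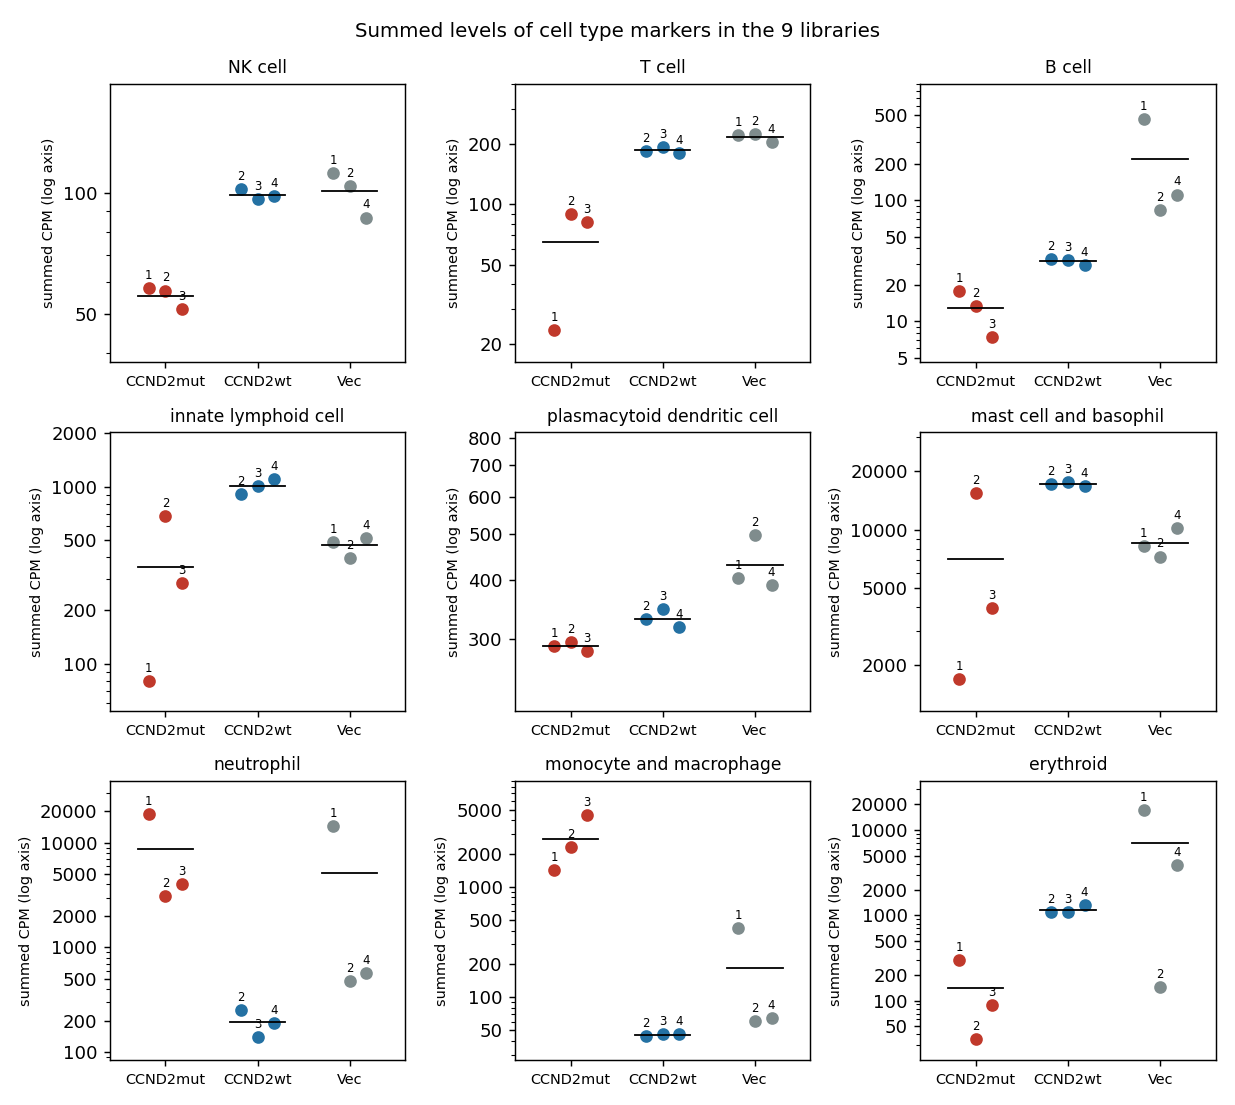
Summed level of 9 marker lists in CPM (log axes, a scale of its own per list) in the 9 libraries, with points numbered by replicate and bars at the group mean. The natural killer, T and B cell sums are lowest in CCND2mut, monocyte and macrophage sums are highest there, and Vec 1 is the top Vec library for B cell, neutrophil, monocyte and erythroid markers.

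Other genes of the granule pathway were split in direction in CCND2mut. Of 21 genes for granule contents, their inhibitors and their release, 14 were tested, and in CCND2mut against Vec 5 were lower and 7 higher in edgeR (median log2 fold change 0.45), or 35.7% and 50.0%, beside 26.9% and 24.9% of all tested genes. CCND2wt against Vec had 0 lower and 2 higher (median -0.24), beside 9.05% and 9.71% of all tested genes. CCND2mut against CCND2wt had 3 lower and 7 higher (median 0.43), or 21.4% and 50.0%, and the lower share was near the 23.8% of all tested genes, of which 23.2% were higher. Without CCND2wt 2, 3 or 4, the calls for CCND2wt against Vec were 0 and those for CCND2mut against CCND2wt 2 lower and 4 higher. Serpinb9, an inhibitor of granzyme B, fell to 2.25, 1.00 and 1.99 CPM in CCND2mut, against 19.1, 11.7 and 26.1 CPM in Vec (log2 fold change -3.43 ± 0.363, edgeR adjusted p = 0.000209). Rab27a, a small GTPase that docks granules for release, rose to 175, 193 and 186 CPM in CCND2mut, against 53.7, 19.6 and 24.8 CPM in Vec (2.49 ± 0.320, edgeR adjusted p = 0.000535). The lysosome trafficking gene Lyst rose there as well, by 1.77 ± 0.229 (edgeR adjusted p = 0.000459). The release genes and inhibitors are also used outside lymphocytes.

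Among the granzymes of that list, Gzmc was at 0 in all CCND2mut libraries, at 0.370, 0.680 and 0.440 CPM in CCND2wt and at 4.04, 12.5 and 0.321 CPM in Vec. As with Gzmb, Vec 4 lay near the CCND2wt libraries. Gzmc shares much of its sequence with Gzmd to Gzmg, so that the counting of its reads is uncertain. Gzmm did not follow it. Its levels were 1.82, 1.27 and 0.996 CPM in CCND2mut, 1.38, 0.680 and 0.550 CPM in CCND2wt and 1.27, 1.22 and 1.03 CPM in Vec. Against Vec its log2 fold change was 0.22 in CCND2mut and -0.43 in CCND2wt (edgeR adjusted p = 0.687 and 0.518).

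More signalling genes of the gamma chain cytokines were lower than higher in CCND2mut. Of 21 genes 19 were tested, and 10 were lower and 3 higher in CCND2mut against Vec in edgeR (median log2 fold change -1.15), or 52.6% and 15.8%, beside 26.9% and 24.9% of all tested genes. CCND2wt against Vec had 3 lower and 1 higher (median -0.39), or 15.8% and 5.26%, beside 9.05% and 9.71% of all tested genes. CCND2mut against CCND2wt had 8 lower and 1 higher (median -0.69), or 42.1% and 5.26%, beside 23.8% and 23.2%. Without CCND2wt 2, 3 or 4, 2, 2 and 1 genes passed for CCND2wt against Vec. Stat5a, a transcription factor activated by these receptors, fell to 86.2, 64.0 and 54.3 CPM in CCND2mut, against 306, 280 and 356 CPM in Vec (-2.20 ± 0.175, edgeR adjusted p = 5.66e-05). Its relative Stat5b fell by 1.72 ± 0.165 and Jak3, the kinase bound to the gamma chain, fell by 2.01 ± 0.264 (edgeR adjusted p = 0.000114 and 0.000504). Bcl2, a survival gene downstream of Il7r in lymphocytes, rose to 15.6, 20.9 and 18.5 CPM in CCND2wt, against 11.2, 7.06 and 6.15 CPM in Vec (1.17 ± 0.232, edgeR adjusted p = 0.0119). That call was lost without CCND2wt 3 or 4 (edgeR adjusted p = 0.0538 and 0.0507). Bcl2 rose in CCND2mut as well, to 23.3, 23.3 and 24.6 CPM (1.54 ± 0.232 against Vec, edgeR adjusted p = 0.000893). The 3 genes lower in CCND2wt against Vec were Il4ra, Mcl1 and Pim1. Their log2 fold changes were -1.55, -1.04 and -1.52 (edgeR adjusted p = 0.00812, 0.0272 and 0.0297). Mcl1 and Pim1 were lower in CCND2mut against Vec too, at -1.12 and -3.01 (edgeR adjusted p = 0.00684 and 0.000556).

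Genes of early T lineage regulation were called in both directions in CCND2mut. Of 22 genes 19 were tested, with 8 lower and 4 higher in CCND2mut against Vec in edgeR (median log2 fold change -0.59), or 42.1% and 21.1%, beside 26.9% and 24.9% of all tested genes. CCND2wt against Vec had 4 lower and 0 higher (median -0.14), with 21.1% lower beside 9.05%, and 9.71% of all tested genes higher. The 5 lower and 3 higher in CCND2mut against CCND2wt (median -0.23), or 26.3% and 15.8%, were near or under the 23.8% and 23.2% of all tested genes. Gata3, a partner of TCF-1 in T cell commitment, fell to 1.09, 0.601 and 0.598 CPM in CCND2mut, against 26.1, 19.2 and 22.6 CPM in Vec (-4.87 ± 0.287, edgeR adjusted p = 2.06e-05). The family members Tcf7l1 and Tcf7l2, which bind the same kind of DNA site, were lower too, with log2 fold changes of -4.63 ± 0.595 and -4.83 ± 0.475 (edgeR adjusted p = 0.000519 and 0.000147), or -5.65 and -5.47 without CCND2mut 1. Tcf7l1 stood at 1.21, 0.534 and 0.0664 CPM in CCND2mut, 23.0, 22.8 and 19.8 CPM in CCND2wt and 11.5, 18.5 and 16.2 CPM in Vec. Tox, an HMG box factor of T cell development, fell by 3.76 ± 0.491 (edgeR adjusted p = 0.000574), and its log2 fold change was -4.57 without CCND2mut 2. The 4 genes called higher were Zbtb7b, Axin2, Notch3 and Tle1, with log2 fold changes of 1.71, 2.87, 2.26 and 0.76. Their edgeR adjusted p was 0.00169, 0.00511, 0.0124 and 0.0179, and the Notch3 levels overlapped those of Vec.

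In CCND2wt against Vec, Dtx1 and Hes1 had the smallest p of that list. Dtx1 gave a log2 fold change of -4.46 ± 1.02 and Hes1 one of -3.27 ± 0.635 (edgeR adjusted p = 0.0130 and 0.0138). Dtx1 passed the filter on low counts through the Vec libraries alone, with 3, 1 and 1 reads in CCND2wt against 53, 16 and 34 reads in Vec, so that its call is no support for a direction. Without CCND2wt 2, 3 or 4, 0 genes of the list passed, with edgeR adjusted p of 0.0550, 0.0707 and 0.0772 for Dtx1 and 0.0679, 0.0624 and 0.0566 for Hes1. Both CD7 ligand genes went untested. The ligand role is known from human SECTM1, and mouse Sectm1b had no read in any library, while Sectm1a had 3 reads, all in Vec 4.

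Of the genes of B cell receptor signalling, 9 of 18 were lower in each CCND2 group than in Vec. All 18 genes were tested, and 9 were lower and 1 higher in CCND2mut against Vec in edgeR (median log2 fold change -1.17), or 50.0% and 5.56%, beside 26.9% and 24.9% of all tested genes. CCND2wt against Vec had 9 lower and 0 higher (median -1.27), beside 9.05% and 9.71% of all tested genes. The 2 lower and 3 higher in CCND2mut against CCND2wt (median -0.05), or 11.1% and 16.7%, were under the 23.8% and 23.2% of all tested genes. The count for CCND2wt against Vec was 2, 2 and 1 lower without CCND2wt 2, 3 or 4, and that for CCND2mut against CCND2wt was 4 lower and 5 higher without Vec 1. Cd72, another inhibitory co-receptor of B cells, fell to 1.09, 2.27 and 1.196 CPM in CCND2mut and to 4.50, 3.40 and 3.63 CPM in CCND2wt, against 43.9, 26.6 and 19.1 CPM in Vec. Its log2 fold changes were -4.29 ± 0.379 and -2.96 ± 0.361 (edgeR adjusted p = 0.000106 and 0.00236). Ptpn6, the phosphatase SHP-1 that CD22 recruits, rose to 484, 455 and 400 CPM in CCND2mut, against 223, 121 and 161 CPM in Vec (1.41 ± 0.201, edgeR adjusted p = 0.000709), and it is used in myeloid cells as well.

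Early lymphoid progenitor genes had the lowest median of the pathway lists in CCND2mut. Of 21 genes 19 were tested, with 14 lower and 1 higher in CCND2mut against Vec in edgeR (median log2 fold change -2.88), or 73.7% and 5.26%, beside 26.9% and 24.9% of all tested genes. CCND2wt against Vec had 6 lower and 1 higher (median -1.38), or 31.6% and 5.26%, beside 9.05% and 9.71% of all tested genes. CCND2mut against CCND2wt had 7 lower and 1 higher (median -1.47), or 36.8% and 5.26%, beside 23.8% and 23.2%. The counts for CCND2wt against Vec were 3 lower and 1 higher without Vec 1, with a median of -0.67, and 1 lower and 1 higher without CCND2wt 2, 3 or 4. Flt3, a receptor of lymphoid and multipotent progenitors, fell to 8.38, 10.01 and 3.72 CPM in CCND2mut and to 35.1, 31.7 and 27.0 CPM in CCND2wt, against 62.0, 145 and 85.9 CPM in Vec (-3.72 ± 0.393 and -1.64 ± 0.382, edgeR adjusted p = 0.000259 and 0.0237). The value for CCND2wt missed the threshold without Vec 2 or any 1 CCND2wt library (edgeR adjusted p = 0.0675 to 0.103). Bcl11a, a factor needed for B cell development, fell by 5.93 ± 0.851 in CCND2mut against Vec (edgeR adjusted p = 0.00106), where CCND2mut 1, 2 and 3 held 44, 1 and 1 reads of it, and the log2 fold change was -9.64 without CCND2mut 1. With the CCND2wt libraries summed into 1 sample, 0 genes of these 5 lists passed for CCND2wt against Vec.

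**Figure D5:**
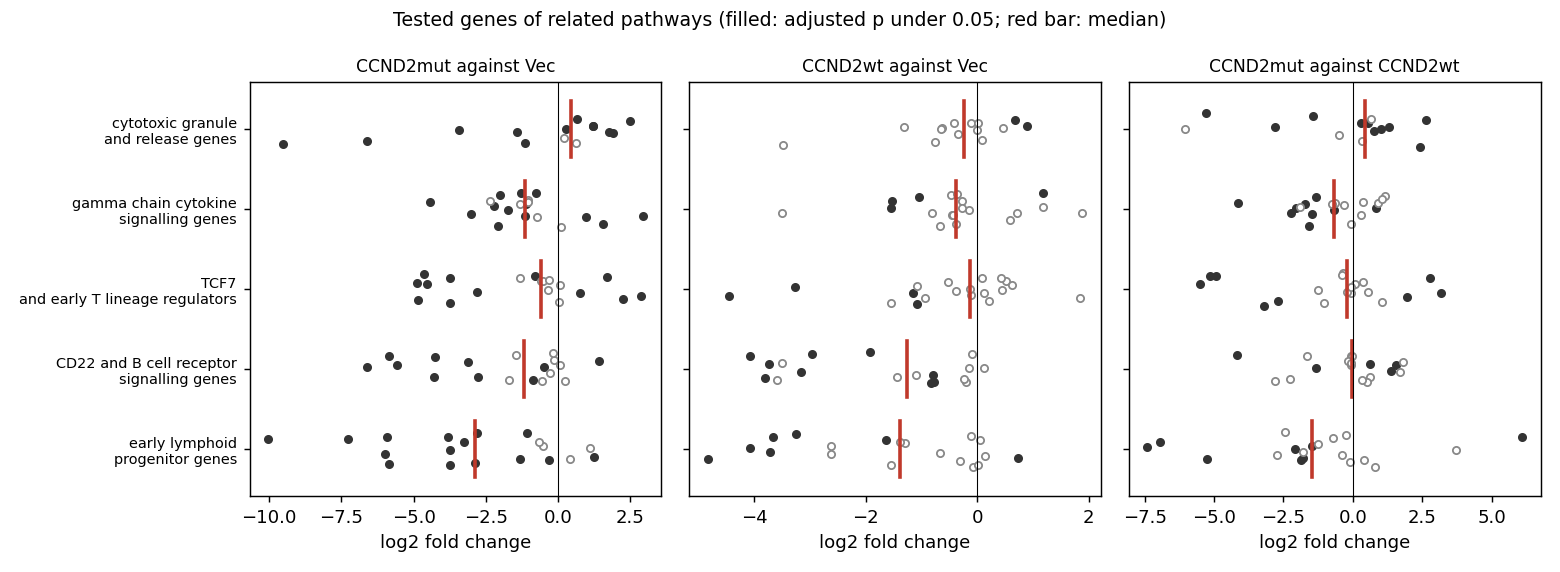
Log2 fold change (linear axes) of the tested genes of 5 related pathway lists in the 3 comparisons, with filled points past an edgeR adjusted p of 0.05, open points not, and red bars at the list median. The early lymphoid list has the lowest median in CCND2mut against Vec, -2.88, and the granule and release list has points on both sides of 0.

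The genes most like each tested gene were sought among 10243 or 10244 protein-coding genes of at least 5 CPM on average, by the root mean square difference over the 9 libraries in log2(CPM + 1), each gene centred on its own mean. This difference grows with a gene's own spread, and the added 1 shrinks the changes of genes at low levels, so that it does not rank the genes by how well they are matched. Ctsw, whose own SD on this scale was 0.857, was nearest to Phc1, a Polycomb subunit, at 0.141, followed by Prkacb at 0.166 and Pea15a at 0.169. Prf1 (SD 2.20) was matched by the antiviral gene Rsad2 at 0.306, the receptor gene Gpr171 at 0.321 and Ctsf, another cathepsin gene, at 0.436. Cd22 (SD 1.36) was matched by the B cell factors Pou2af1 at 0.349 and Pax5 at 0.385, with Cd300a at 0.358 between them. Cd7 (SD 0.668) lay nearest to Slc25a37, the mitochondrial iron importer of red cell precursors, at 0.147, and next to Ranbp10 and Xpo7 at 0.260 and 0.274. That likeness rests on the added 1, since in CCND2wt against Vec the log2 fold change was -4.42 for Cd7 and -1.19 for Slc25a37.

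For Il2rb (SD 1.05) the nearest genes were Fam129c at 0.369, Pld4 at 0.380 and Tent5c at 0.383. Tcf7 (SD 1.38) was matched by Irak3 at 0.393, Hspbap1 at 0.402 and G6pdx at 0.414, and Il7r (SD 1.21) by Atp1b1 at 0.512, Ctse at 0.513 and Axl at 0.535. Irak3, a brake on Toll-like receptor signals, averaged 45.5 CPM in CCND2mut, 4.99 CPM in CCND2wt and 9.11 CPM in Vec. It shares the order of Tcf7, but it was picked for that likeness, so the order is no separate result. These are descriptions over 9 libraries that share groups and depth.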

How the data were processed

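The deposited file holds read counts per gene for 9 bone marrow libraries. Per the submitters' processing notes, the tools were CASAVA 1.8, fastp, HISAT2 2.0.5 (genome build mm10), featureCounts 1.5.0-p3 and DESeq2 1.20.0. Annotation release and strand setting: not given in the sources used here. Libraries got their groups from their titles. Genes of at least 10 counts (0.600 CPM) in 3 libraries were kept with filterByExpr (15660, of which 12701 protein-coding), scaled by TMM and fitted over all 9 libraries in edgeR 4.0.16 (R 4.3.3, limma 3.58.1; robust quasi-likelihood, 6 residual degrees of freedom, median biological coefficient of variation 0.246). P-values were Benjamini-Hochberg adjusted over all tested genes, with a threshold of 0.05. Ratios of summed reads have 95% counting intervals. The 9 genes were always named. Of each list, up to 4 tested genes with the smallest adjusted p in CCND2mut or CCND2wt against Vec could be named, and the 3 genes most like each tested gene. Gzmc, Gzmm, Il4ra, Mcl1, Pim1, Zbtb7b, Axin2, Notch3, Tle1, Sectm1a, Sectm1b and single markers outside that rule were chosen after their values were seen. The genes and lists were chosen with earlier results of these data known. Alternatives were DESeq2 1.42.0, limma-voom, RLE size factors, no or a stricter filter, a fit of the compared groups alone, a replicate block, removal of haemoglobin, immunoglobulin and mitochondrial genes, and each library left out. Results for some genes of the lists are not reported here.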

Additional observations from a re-analysis of the deposited data

How the results depend on the processing

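Most values kept their direction and their side of the threshold: 764 of 847 alternative values of the named fold changes, with 7 reversed. Gzmm, Il4ra, Mcl1, Pim1, Zbtb7b, Axin2, Notch3 and Tle1 are not among these. In CCND2mut against Vec, 5 to 7 of the tested named genes were past the threshold under every setting tried. For CCND2mut against CCND2wt the count was 3 to 4 with 1 library left out. For CCND2wt against Vec, 2938 genes passed in edgeR and 4299 in DESeq2, with 1636 under the replicate block and 1019 to 3817 with 1 library left out. The 5 named genes past the threshold there became 1 to 6 with 1 library left out. The next settings were chosen after seeing the data. With the CCND2wt libraries summed into 1 sample, 39 genes and 0 named genes passed for CCND2wt against Vec, and 2378 in place of 7360 genes for CCND2mut against CCND2wt. With Vec 1 and CCND2mut 1 both left out, 4470 genes passed for CCND2wt against Vec, and 5 named genes in place of 3 for CCND2mut against CCND2wt. The causes were not tested.

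The reversed values were all of results that did not pass as reported. Il7r in CCND2mut against Vec turned to 1.76 with both libraries out, and ran from -1.32 to 1.22 with 1 library left out. Il2rb in CCND2mut against CCND2wt turned to -0.070 in limma-voom, -0.95 under the replicate block and -0.96 with both out, and ran from -0.95 to 0.69 with 1 library left out. Cd7 there was -0.27 under the replicate block. Cd22 there passed under the block (log2 fold change -2.07, edgeR adjusted p = 0.0142). Il7r in CCND2wt against Vec passed in DESeq2 (adjusted p = 0.0247). Deviations of same-numbered libraries correlated at -0.07 to 0.19, over 0.1 in 2 of 6 pairs. These were Vec 1 with CCND2mut 1 (0.187) and Vec 2 with CCND2mut 2 (0.153). Libraries of unlike number in different groups ran from -0.21 to 0.26. With 3 libraries a group, such values cannot decide whether replicate numbers pair the libraries. Depth limits Gzma, Gzmb and Cd7, whose CCND2 libraries held 0 to 5 reads.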
